A study of Mus musculus with 12 samples.

Results

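Integrins and cadherins are the membrane proteins by which cells hold to matrix and to each other, and their genes were followed here across the libraries of mouse alveolar epithelial cells (the cells lining the air sacs). Members were all genes whose symbol begins with Itga or Itgb followed by digits or small letters, with Cdh followed by digits, or with Pcdh, leaving out Itga8, Itga2b, Itgb6, Cdh1 and Cdh5. The rule found 81 entries under 80 symbols among 14179 genes, of which 72 were in all 3 deposited tables. They comprised 26 entries named Itg, 9 named Cdh and 46 named Pcdh. The cells came from C57BL/6 mice aged 8 to 10 weeks, in 4 groups of 3 libraries that differed in what was instilled into the trachea. The groups were saline, lipopolysaccharide (LPS, a molecule of the bacterial envelope that provokes acute inflammation of the lung) at 2 mg/kg taken after 1 day, and bleomycin (an anticancer drug used to produce lung injury and fibrosis) at 1.5 U/kg taken after 2 weeks or after 4 weeks. In every group cells carrying CD16/32, CD45, CD31, CD90, Ter119 or PDGFRα were removed with beads and EpCAM-positive cells were kept, so leukocytes, endothelial cells, red cells and fibroblasts were meant to be depleted. The labels give neither the time between saline and collection nor whether each library was 1 mouse or a pool, so p-values measure only the spread between these libraries, which may be technical.

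An integrin is a pair of an α and a β chain that binds matrix or a partner cell on the outside and talins and kindlins on the inside. The β chain of leukocyte integrins is made in blood-derived cells, laminin-binding pairs anchor epithelium to its basement membrane, and pairs that read the RGD motif bind fibronectin or vitronectin and can release active TGF-β from its latent complex. Classical cadherins join cells through calcium-dependent binding and catenins. Atypical cadherins lack that catenin link, and clustered protocadherins are neighbouring genes best known from neurons, where each cell uses a few of them.

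Values are FPKM, fragment numbers divided by the length of the transcript and the size of the library, so levels may be compared between genes, but the depth is unknown. Library 2 of the 4-week group stood apart: it listed 6142 of 13518 genes (45.4%) at 0 FPKM and 39 of the 72 members at 0, against 0 to 2 members in each other library, and Epcam was at 0. Its correlation with the other libraries across genes was 0.551 to 0.637. Results at 4 weeks are therefore given with and without it, and the 2 other libraries of that group (library 1 and a library whose number matched no sample title, called the unnumbered library) are called the 4-week pair. Epcam was at 20.7 to 46.2 FPKM in the other 11 libraries. Summed FPKM of 10 type 2 cell markers was 15045 to 19414 in saline, 4244 to 7618 after LPS and 3873 to 4765 at 2 weeks. Markers of depleted cell types were still present: in saline, summed FPKM was 413 to 821 for 12 neutrophil markers, 4040 to 4627 for 13 macrophage and monocyte markers, 2837 to 3511 for 13 fibroblast and smooth muscle markers, 411 to 610 for 9 endothelial markers and 65.1 to 108 for the 5 mesothelial markers in all tables. Leaving out 4-week library 2, none of these markers was at 0 in all libraries of a group. In such bulk samples fewer cells of a type and less RNA per cell cannot be told apart.

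The stretches of 250 bases before the start of transcription are shown for Itgam, Itgax, Itga5 and Itgav, α chains on which the comparisons below turn and for which a sequence was at hand (RefSeq, build GRCm38.p6, 5′ to 3′ on the strand of the gene). The RefSeq promoter table used here held 25 of the 80 member symbols, in 26 promoters. Capitals mark the core of the PU-box, GAGGAA, to which the myeloid factor PU.1 and other ETS proteins bind, and the AP-1 site TGANTCA, both searched on both strands; no 2 matches overlapped. Itgam lies at chr7:128062390-128062639 on the plus strand, Itgax at chr7:128129300-128129549 on the plus strand, Itga5 at chr15:103366792-103367041 on the minus strand and Itgav at chr2:83724147-83724396 on the plus strand.

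Itgam: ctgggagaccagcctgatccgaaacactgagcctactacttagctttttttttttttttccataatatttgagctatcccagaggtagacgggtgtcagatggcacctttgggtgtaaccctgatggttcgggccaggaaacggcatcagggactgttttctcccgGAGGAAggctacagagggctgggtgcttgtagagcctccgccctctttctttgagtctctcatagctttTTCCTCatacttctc

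Itgax: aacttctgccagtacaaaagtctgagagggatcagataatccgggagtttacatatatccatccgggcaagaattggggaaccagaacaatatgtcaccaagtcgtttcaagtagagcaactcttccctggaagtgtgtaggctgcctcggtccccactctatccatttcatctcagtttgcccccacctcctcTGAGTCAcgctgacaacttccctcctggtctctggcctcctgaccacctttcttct

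Itga5: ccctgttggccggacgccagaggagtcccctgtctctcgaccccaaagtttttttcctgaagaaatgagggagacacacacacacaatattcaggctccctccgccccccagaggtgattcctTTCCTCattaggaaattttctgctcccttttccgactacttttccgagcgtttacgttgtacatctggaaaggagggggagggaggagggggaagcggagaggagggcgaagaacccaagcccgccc

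Itgav: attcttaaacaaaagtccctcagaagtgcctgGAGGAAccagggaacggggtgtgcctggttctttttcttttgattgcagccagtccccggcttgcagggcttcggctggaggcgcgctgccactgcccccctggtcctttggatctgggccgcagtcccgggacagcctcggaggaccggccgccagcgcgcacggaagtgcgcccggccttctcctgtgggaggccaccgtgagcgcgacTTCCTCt

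The PU-box core was found 2 times before Itgam (84 and 15 bases before the start), 1 time before Itga5 (127 bases) and 2 times before Itgav (218 and 7 bases), and the AP-1 site 1 time before Itgax (56 bases). Of the 26 member promoters, 8 held the PU-box core and 1 the AP-1 site. Among all 32851 promoters of the same length the shares were 23.3% and 6.75%. These are letter matches and not measured binding.

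Of the 81 entries, 58 passed the filter on low values (at least 1 FPKM in at least 3 libraries of a fit) in at least 1 comparison, and 34 passed the test in at least 1 comparison with saline. After LPS, 7 of 48 tested members were higher and 19 were lower (limma adjusted p under 0.05), where 14.2% of all genes tested were higher and 25.9% lower. At 2 weeks of bleomycin, 16 of 55 were higher and 4 lower, where 18.0% and 11.8% of all genes were. With all 3 libraries at 4 weeks, 0 of 53 passed in either direction (0.0% of all genes in either direction), with 1 member at an unadjusted p under 0.05. The authors' deposited table also held 0 members with a q-value under 0.05. With the 4-week pair, 1 of 52 was higher (0.79% of all genes) and 1 lower (0.651%). A filter that needs values in 3 libraries lets a low gene pass through the group where it is high. After LPS, Cdh4, Cdh22, Cdh16, Pcdhac2, Pcdhga10 and Pcdhga12 were called lower while under 1 FPKM in every LPS library. At 2 weeks, Itgae, Itgb8, Pcdhb5 and Pcdhgc5 were called higher while under 1 FPKM in every saline library. The 1 member called lower with the 4-week pair, Pcdhac2, was under 1 FPKM in each library of that pair. The 3 comparisons share the saline libraries. Members higher after LPS and at 2 weeks were Itga5, Itgax and Itgb2. Cdh16, Cdh4, Pcdhac2 and Pcdhgb7 were lower in both, and Itgb5, Itgb4, Cdh11, Pcdhb9 and Pcdhb17 were lower after LPS and higher at 2 weeks. No member was higher after LPS and lower at 2 weeks.

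**Figure D1:**
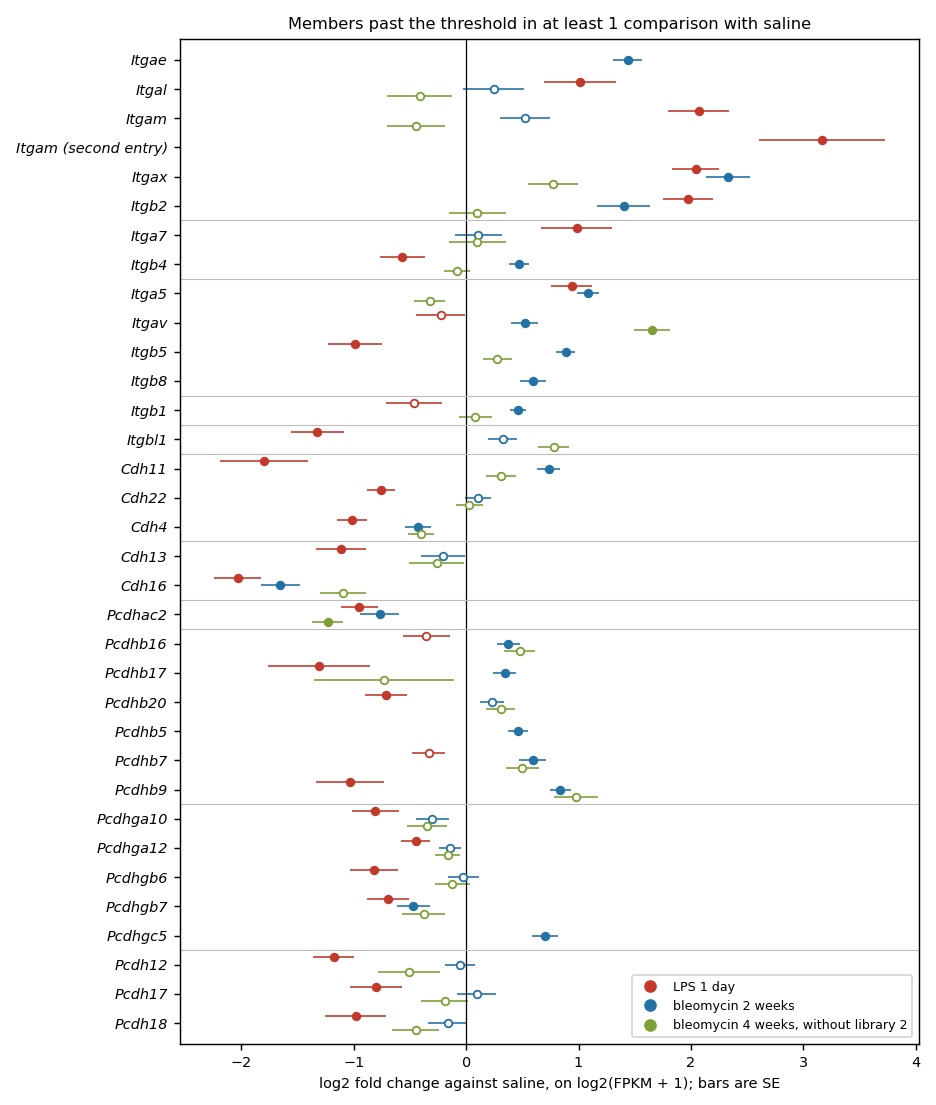
Log2 fold change against saline on log2(FPKM + 1) for the 34 members that passed in at least 1 comparison, with SE bars, grouped by family; filled points passed (limma adjusted p under 0.05) and a missing point was not tested. Leukocyte integrins lie to the right after LPS and 2 weeks, cadherins and protocadherins mostly to the left after LPS, and Itgav furthest to the right at 4 weeks.

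The scale of the libraries matters to these counts. Over all genes the median log2 fold change stood at -0.22 after LPS and 0.05 at 2 weeks, -0.44 and 0.21 over the members tested. Equal FPKM totals moved the median of all genes to -0.37 and 0.18, median-ratio scaling to 0.01 and -0.01, and quantile normalization to -0.06 and -0.02. All-gene calls after LPS, 1770 higher and 3232 lower as deposited, became 1218 and 3717, 2540 and 2054, and 2134 and 2546 under these scalings in turn. At 2 weeks, 2290 higher and 1496 lower became 3657 and 917, 1997 and 1999, and 1925 and 2027. Among members these scalings gave 5 to 7 higher and 14 to 22 lower after LPS, and 13 to 18 higher and 2 to 4 lower at 2 weeks. Leaving out 1 library gave 6 lower members after LPS without saline library 1, 8 without saline library 3, 9 without saline library 2 or LPS library 3 and 28 without LPS library 1, and a filter of 5 FPKM gave 3. At 2 weeks leaving out 1 library gave 9 to 17 higher and 2 to 4 lower, and the filter of 5 FPKM gave 7 and 0. A fit of all 12 libraries together, which takes in 4-week library 2, called 669 genes after LPS and 134 at 2 weeks. Of the members only Itgam (both entries) and Cdh16 passed in it after LPS and 0 at 2 weeks, so that fit ended the other LPS and 2-week calls against saline described below, apart from Itgb8, which is not in all 3 tables and was not in that fit. A fit of the 11 libraries without it ended the LPS call of Pcdhb17 and the 2-week calls of Itgb4, Itgb1, Itgav, Cdh11, Pcdhb5, Pcdhb9, Pcdhb16, Pcdhb17 and Pcdhgb7. In the authors' deposited table, 15 of the LPS calls and 8 of the 2-week calls had q-values of at least 0.05. Those of the more abundant members were 0.163 for Itga7, 0.161 for Itgal and 0.0669 for the second Itgam entry after LPS, and further ones are given below. The deposited q-values were under 0.05 for some members under the filter here. These were Itga11, Cdh2, Pcdhb3 and Pcdhb8, lower after LPS, and Cdh24 and Pcdhga1, higher at 2 weeks.

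Of 7 leukocyte integrin entries tested after LPS, 5 passed, all higher (Itgb2, Itgax, Itgal and Itgam, the last counted 2 times for its overlapping entries), where 14.2% of all genes were higher. The median log2 fold change over the tested entries was 1.97. With equal FPKM totals 4 of 8 passed, with a median of 1.31. Itgb2, the shared β chain (CD18) of the integrins of neutrophils, macrophages and lymphocytes, was at 35.9, 19.7 and 26.1 FPKM in saline and at 111, 106 and 103 FPKM after LPS. At 2 weeks it was at 82.5, 79.9 and 55.5 FPKM, and at 4 weeks at 24.9 and 32.4 FPKM in the pair and 1.02 FPKM in library 2. Every LPS and 2-week library lay above every saline library, and the 4-week pair lay within the saline range. The log2 fold change was 1.97 ± 0.22 after LPS (SE, limma adjusted p = 0.000306) and 1.40 ± 0.23 at 2 weeks (adjusted p = 0.00478, against 0.0538 as the q-value in the authors' deposited table). Itgb2 lies on chromosome 10 from 77530252 to 77565708 in the mm10 coordinates of the tables.

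Itgax, the α chain CD11c carried by alveolar macrophages and dendritic cells, was at 7.82, 4.84 and 7.03 FPKM in saline, 33.9, 31.1 and 24.7 FPKM after LPS and 42.7, 39.3 and 28.8 FPKM at 2 weeks. In the 4-week pair it was at 9.87 and 13.9 FPKM and library 2 at 0. Both treated groups lay wholly above saline, by log2 fold changes of 2.04 ± 0.21 (limma adjusted p = 0.00021) and 2.33 ± 0.20 (adjusted p = 0.000325), the largest rise of any member at 2 weeks in the fit of that table. The 4-week pair also lay above every saline library, with a difference that did not pass (adjusted p = 0.131 without library 2).

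Itgam, the α chain CD11b of neutrophils and monocytes, is listed as a pair of entries that overlap on chromosome 7. The annotation names the entry at 128062640 to 128118491 Itgam and the entry at 128062683 to 128128160 Gm49368, and 68.7% of the exonic bases of the former lie in exons of the latter, so their reads may be split. The former was at 5.40, 3.15 and 4.28 FPKM in saline and 31.2, 17.2 and 16.7 FPKM after LPS, and the latter at 0.0566, 0.389 and 2.30 FPKM and 30.1, 5.91 and 15.4 FPKM. LPS lay above saline in both without overlap, with log2 fold changes of 2.07 ± 0.27 (limma adjusted p = 0.000696) and 3.17 ± 0.56 (adjusted p = 0.00295), and 2.60 for their sum (adjusted p = 0.000698), an alternative chosen after seeing the data. At 2 weeks the former was at 8.68, 6.41 and 4.78 FPKM, overlapping saline, and at 4 weeks at 2.00 and 3.85 FPKM in the pair and 9.99 FPKM in library 2. The latter was at 0 to 3.25 FPKM at 2 weeks and at 0 to 0.289 FPKM at 4 weeks.

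Itgal, the α chain of the lymphocyte integrin LFA-1, was at 8.80, 3.81 and 6.10 FPKM in saline, 19.6, 8.96 and 12.4 FPKM after LPS and 8.53, 8.29 and 5.27 FPKM at 2 weeks. The 4-week pair was at 3.76 and 4.71 FPKM and library 2 at 0. The lowest LPS library stood just above the highest saline library, the 2-week libraries lay within the saline range, and the rise of 1.01 ± 0.32 after LPS (limma adjusted p = 0.0349) lost its call without saline library 2 (adjusted p = 0.124) or 3 (0.0807) or LPS library 1 (0.0868) or 3 (0.107). It also lost it with equal FPKM totals (0.0841).

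Itgae, the α chain CD103 that binds E-cadherin, rose at 2 weeks, from 0.778 to 0.948 FPKM in saline to 3.34 to 4.96 FPKM (log2 1.44 ± 0.13, limma adjusted p = 0.000429), and was at 0.685 to 1.12 FPKM after LPS, under the filter. At 2 weeks it passed the filter through the 2-week libraries alone. Its partner chain Itgb7 was at 10.3 to 20.4 FPKM in saline, 17.0 to 28.3 FPKM after LPS and 15.9 to 22.3 FPKM at 2 weeks, and Itga4, which binds VCAM1, at 2.61 to 5.69, 2.43 to 6.69 and 3.27 to 5.71 FPKM. Both overlapped saline and did not pass in either comparison.

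**Figure D2:**
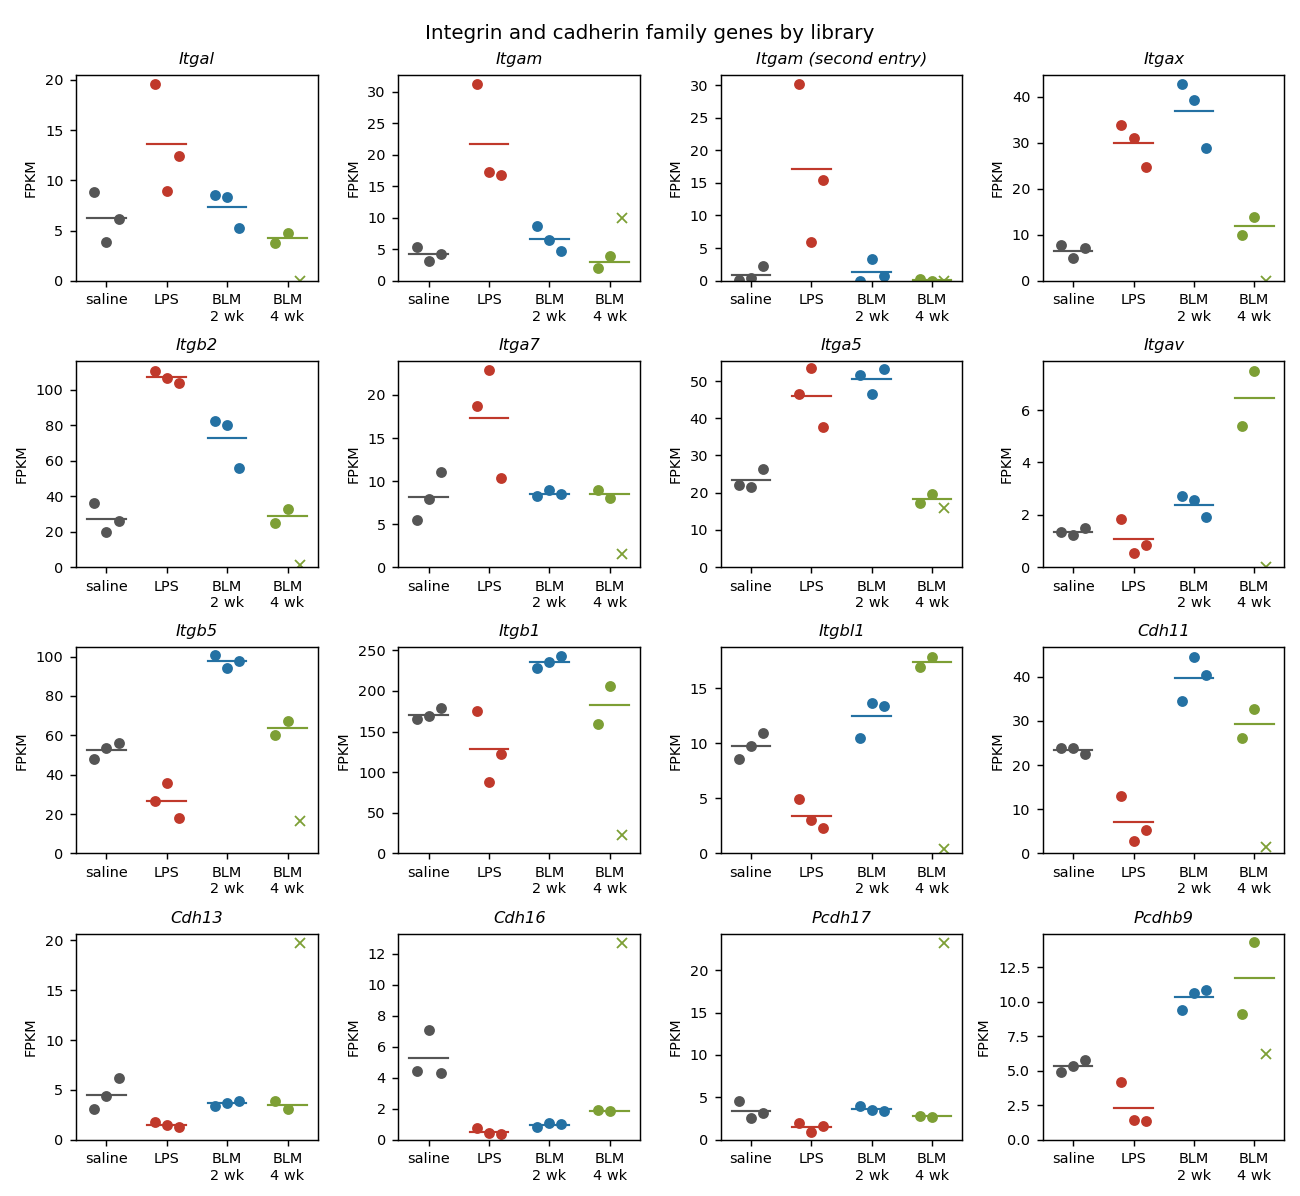
FPKM of each library (points) and group means (lines; at 4 weeks the mean of the pair, with library 2 as a cross) for the 16 entries that reached a mean of 5 FPKM in a group and passed in at least 1 comparison with saline. Cdh13 and Pcdh17 reached it only with library 2 and Itgav only without it. Itgb2, Itgax and Itga5 are higher than saline after LPS and at 2 weeks, Cdh11, Itgb5 and Pcdhb9 are lower after LPS and higher at 2 weeks, and library 2 is often far from its pair.

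Among transcripts of the α chains that pair with Itgb2, the shares of Itgax and Itgam did not overlap between LPS and 2 weeks. Of the summed FPKM of Itgal, Itgam (both entries) and Itgax, Itgax held 35.4% to 39.7% in saline, 29.6% to 49.2% after LPS and 68.6% to 72.7% at 2 weeks, and 61.9% and 62.0% in the 4-week pair. Itgam held 24.7% to 33.4% in saline, 36.6% to 53.4% after LPS and 13.9% to 16.9% at 2 weeks, and 14.4% and 17.1% in the 4-week pair. The 2-week libraries and the 4-week pair thus lay above every saline library in the Itgax share and below it in the Itgam share, without a test on these shares. Markers of cell types that carry these integrins did not all move one way. Of all genes tested 14.2% were higher and 25.9% lower after LPS, and 18.0% and 11.8% at 2 weeks. All 12 neutrophil markers were higher after LPS, with summed FPKM of 3216 to 8326, and 0 were higher and 3 lower at 2 weeks (241 to 352). Of 13 macrophage and monocyte markers, 10 were higher after LPS, with summed FPKM of 4865 to 7001, and 9 were higher and 1 lower at 2 weeks (2973 to 4136). Of 7 dendritic cell markers, 5 were higher at 2 weeks, and of 4 tested after LPS 1 was higher and 1 lower. Summed FPKM of the 5 in all tables was 40.5 to 67.9 in saline, 48.4 to 54.0 after LPS and 43.7 to 57.0 at 2 weeks, so both treated groups lay within the saline range. Of 10 T and NK cell markers, 5 were higher after LPS, with summed FPKM of 97.6 to 200 in saline and 225 to 372 after LPS, and 3 at 2 weeks (118 to 154). All 6 B cell markers were lower after LPS, with summed FPKM of 86.2 to 214 in saline and 33.2 to 64.3 after LPS, and 0 passed at 2 weeks (56.8 to 104). Their part in the integrin values was not tested.

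**Figure D3:**
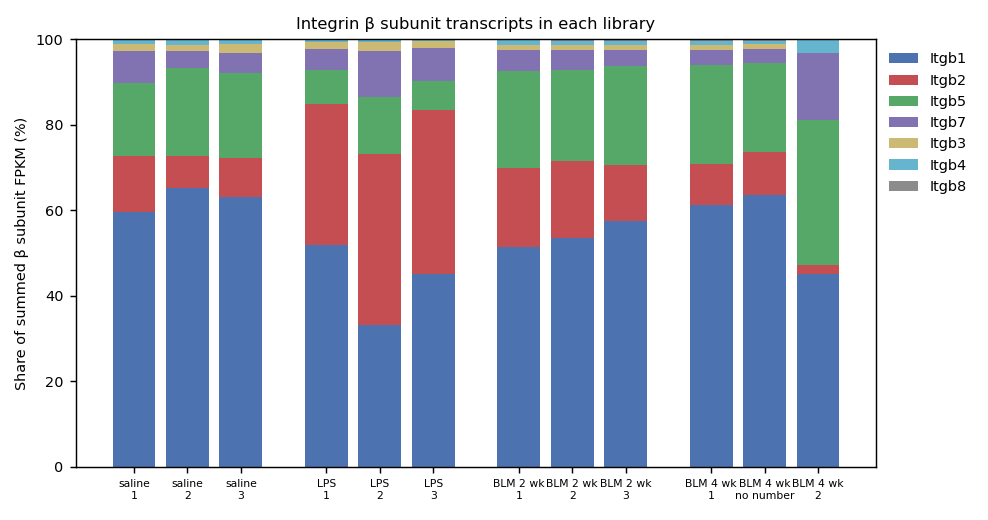
Share (percent) of each integrin β chain in the summed FPKM of the β chains, in each library; Itgb8 was not in the LPS table. In saline Itgb2 held 7.59% to 13.0%, after LPS 32.8% to 40.0%, at 2 weeks 13.1% to 18.6% and 9.59% and 10.0% in the 4-week pair.

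Itgb1, the β chain with the most partners, held 59.6% to 65.2% of the summed β chain FPKM in saline, which was 33.2% to 52.0% after LPS, 51.4% to 57.5% at 2 weeks and 61.3% and 63.6% in the 4-week pair. Its level was 165, 169 and 179 FPKM in saline, 175, 88.3 and 122 FPKM after LPS, 228, 236 and 243 FPKM at 2 weeks and 159 and 206 FPKM in the 4-week pair, with 22.0 FPKM in library 2. The 2-week libraries lay above saline without overlap (log2 0.46 ± 0.07, limma adjusted p = 0.00411), and those of LPS reached from below the saline range into it and did not pass. Itga9, an α chain that pairs with it and binds tenascin C and osteopontin, did not pass in any comparison with saline and was at 15.4 to 19.6 FPKM in saline, 8.90 to 15.5 FPKM after LPS and 16.8 to 17.0 FPKM at 2 weeks.

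Among laminin-binding integrins, which tie epithelium to its basement membrane, 1 of 4 was higher and 1 lower after LPS, and 1 of 4 was higher at 2 weeks. Of all genes tested 14.2% were higher and 25.9% lower after LPS, and 18.0% were higher at 2 weeks. Itga7, best known from muscle, was at 5.44, 7.87 and 11.1 FPKM in saline and at 18.8, 22.9 and 10.3 FPKM after LPS. The third LPS library lay within the saline range, and the rise (log2 0.98 ± 0.32, limma adjusted p = 0.0358) was lost without saline library 1 (0.122) or 2 (0.0862), without LPS library 1 (0.087) or 2 (0.0984), and with equal FPKM totals (0.073). It was at 8.20 to 8.93 FPKM at 2 weeks and at 8.95 and 8.03 FPKM in the 4-week pair, with 1.48 FPKM in library 2.

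Itgb4, the hemidesmosome β chain, went from 2.70 to 2.80 FPKM in saline to 0.907 to 2.10 FPKM after LPS and 3.88 to 4.57 FPKM at 2 weeks. Neither treated group overlapped saline, and the 2-week rise (log2 0.47 ± 0.09, limma adjusted p = 0.00765) kept its call without any 1 library. The fall after LPS (log2 -0.57 ± 0.20, adjusted p = 0.0493) was lost without any of the saline libraries or LPS library 2 or 3 (0.0581 to 0.143) and with a pseudocount of 0.1 (0.0659), no filter (0.0507), median-ratio scaling (0.111) or quantile normalization (0.244). Itga3, the laminin receptor α chain of alveolar epithelium, was at 22.7 to 28.0 FPKM in saline, 23.1 to 35.2 FPKM after LPS and 19.4 to 24.0 FPKM at 2 weeks, and Itga6, the partner of Itgb4, at 3.91 to 7.58, 2.03 to 12 and 6.14 to 9.15 FPKM. Both overlapped saline and did not pass.

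None of the 2 tested collagen-binding integrins passed against saline after LPS or at 2 weeks, by limma at an adjusted p, with 1 at an unadjusted p under 0.05 after LPS and 0 at 2 weeks. Itga1 was at 8.49 to 13.9 FPKM in saline, 3.80 to 10.5 FPKM after LPS and 12.4 to 15.1 FPKM at 2 weeks, and Itga2 at 1.02 to 1.80, 0.328 to 2.43 and 1.47 to 2.36 FPKM. All of these ranges overlapped saline. Itga10 and Itga11 were mostly under 1 FPKM and were not tested. Itga11 was at 0.537 to 0.752 FPKM in saline and 0.0635 to 0.169 FPKM after LPS, with a q-value of 0.0232 in the authors' deposited table.

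Of the 5 RGD-binding integrins tested at 2 weeks, Itga5, Itgav, Itgb5 and Itgb8 rose and Itgb3 did not pass, with a median log2 fold change of 0.59 over the 5. That median is the value of Itgb8, which was under 1 FPKM in every saline library and entered the test only through the 2-week libraries. Of all genes tested 18.0% were higher, and with quantile normalization 3 of the 5 passed. Itga5, the α chain of the fibronectin receptor on chromosome 15 (103344289 to 103366763), was at 22.1, 21.6 and 26.3 FPKM in saline, 46.6, 53.5 and 37.6 FPKM after LPS and 51.6, 46.6 and 53.2 FPKM at 2 weeks. In the 4-week pair it was at 17.3 and 19.5 FPKM and library 2 at 16.0 FPKM. LPS and 2-week libraries all lay above saline and all 4-week libraries below it. The log2 fold changes were 0.94 ± 0.18 after LPS (SE, limma adjusted p = 0.00471) and 1.08 ± 0.10 at 2 weeks (adjusted p = 0.000454), and the 4-week difference did not pass with library 2 or without it.

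Itgb5, a vitronectin receptor β chain on chromosome 16 (33829665 to 33949153), moved in opposite directions in the 2 treatments. It was at 47.8, 53.4 and 56.2 FPKM in saline, 26.8, 35.7 and 18.0 FPKM after LPS, 101, 94.5 and 97.8 FPKM at 2 weeks, and 60.1 and 67.4 FPKM in the 4-week pair with 16.5 FPKM in library 2. LPS lay wholly below saline and 2 weeks wholly above it, with log2 fold changes of -0.99 ± 0.24 (limma adjusted p = 0.0118, against a q-value of 0.0832 in the authors' deposited table) and 0.89 ± 0.08 (adjusted p = 0.000485). Between the treatments LPS was lower by -1.87 ± 0.24 on the log2 scale (adjusted p = 0.000398).

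Itgav, the α chain that pairs with Itgb5 and with the β chains of TGF-β-releasing integrins, lies on chromosome 2 (83724397 to 83806916). It was at 1.34, 1.23 and 1.49 FPKM in saline, 1.84, 0.550 and 0.840 FPKM after LPS and 2.72, 2.56 and 1.90 FPKM at 2 weeks. The 4-week pair was at 5.40 and 7.51 FPKM, above every library of the other groups, and library 2 was at 0. The rise at 2 weeks was 0.52 ± 0.12 on the log2 scale (limma adjusted p = 0.0166) and was lost without saline library 2 (0.056) or 2-week library 2 (0.0557). The rise at 4 weeks was 1.65 ± 0.16 without library 2 (adjusted p = 0.0102), had adjusted p-values of 0.0352 to 0.0386 without 1 saline library, and had no call with library 2 (adjusted p = 0.585). Without either library of the pair they were 0.0491 and 0.0301, in fits where the lone 4-week library is assumed to vary like saline.

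Itgb8, a β chain known for activating TGF-β, rose at 2 weeks from 0.373 to 0.531 FPKM to 1.01 to 1.55 FPKM (log2 0.59 ± 0.12, limma adjusted p = 0.00956). That call was lost with quantile normalization (0.0514), and Itgb8 passed the filter through the 2-week libraries alone. Itgb3, the platelet and osteoclast β chain, was at 3.57 to 5.48 FPKM in saline, 4.25 to 5.59 FPKM after LPS and 5.06 to 5.73 FPKM at 2 weeks and did not pass.

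Ligands of these integrins were followed as a list of 22 genes. At 2 weeks 11 were higher and 5 lower, where 18.0% and 11.8% of all genes tested were, with a median log2 fold change of 0.45 against 0.05 over all genes. Spp1 (osteopontin), which binds RGD integrins, was at 37.9 to 42.0 FPKM in saline and 1180 to 1319 FPKM at 2 weeks (log2 4.93 ± 0.08, limma adjusted p = 8.41e-07), and Tnc (tenascin C) rose by 4.10 ± 0.16 (adjusted p = 3.61e-05). Both were still higher in the 4-week pair, Spp1 at 237 and 316 FPKM (log2 2.76 ± 0.15, limma adjusted p = 0.00334) and Tnc at 28.1 and 36.1 FPKM (log2 2.30 ± 0.21, adjusted p = 0.00894), while library 2 was at 4.75 and 1.67 FPKM. After LPS 3 ligands were higher and 9 lower (median -0.39 against -0.22 over all genes), where 14.2% and 25.9% of all genes tested were. Those lower were led by Fbln5, an elastic fibre protein, which fell by 2.68 (SE 0.20, limma adjusted p = 4.1e-05), and Npnt (nephronectin), which fell by 2.39 (SE 0.22, adjusted p = 0.000127) on the log2 scale.

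Inside the cell, 24 partners of integrin tails were followed, among them the member Itgb1bp1. After LPS 3 were higher and 5 lower, where 14.2% and 25.9% of all genes tested were, and at 2 weeks 2 were higher and 1 lower, where 18.0% and 11.8% were. Fermt3, the kindlin of blood cells, went from 8.95 to 15.5 FPKM in saline to 32.8 to 49.6 FPKM after LPS (log2 1.66 ± 0.24, limma adjusted p = 0.00108) and 16.2 to 23.7 FPKM at 2 weeks (log2 0.77 ± 0.21, adjusted p = 0.0317). Parvg, a parvin of blood cells, rose after LPS by 1.56 ± 0.26 (adjusted p = 0.00215), and Apbb1ip, which links Rap1 to talin, rose at 2 weeks by 0.74 ± 0.19 (limma adjusted p = 0.0264).

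3 entries carry integrin names without being integrin chains. Itgbl1, a secreted protein with repeats like those of β chains, was at 8.60, 9.74 and 10.9 FPKM in saline, 4.91, 3.00 and 2.31 FPKM after LPS and 10.5, 13.6 and 13.4 FPKM at 2 weeks. In the 4-week pair it was at 16.9 and 17.8 FPKM and library 2 at 0.379 FPKM. LPS lay wholly below saline (log2 -1.32 ± 0.24, limma adjusted p = 0.00307) and the 4-week pair wholly above it, a difference that did not pass (adjusted p = 0.0544 without library 2). Itgb1bp1, which binds the Itgb1 tail, was at 5.81 to 6.56 FPKM in saline, 6.69 to 8.59 FPKM after LPS and 4.98 to 7.05 FPKM at 2 weeks, and Itgb3bp, a centromere protein, at 1.21 to 1.55, 1.21 to 1.65 and 1.01 to 1.61 FPKM. Neither passed.

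All 5 tested cadherins fell after LPS, with a median log2 fold change of -1.11, where 25.9% of all genes tested were lower. The 5 remained lower with a call under all 3 scalings. Cdh4, Cdh22 and Cdh16 were under 1 FPKM in every LPS library, so the filter let them in through the saline libraries, where they were high. Cdh11, a classical cadherin of mesenchymal cells, lies on chromosome 8 (102632095 to 102785642). It was at 24.0, 23.8 and 22.4 FPKM in saline, 13.0, 2.91 and 5.31 FPKM after LPS and 34.5, 44.6 and 40.5 FPKM at 2 weeks. The 4-week pair was at 26.1 and 32.7 FPKM and library 2 at 1.41 FPKM. LPS lay wholly below saline and 2 weeks wholly above it, with log2 fold changes of -1.80 ± 0.39 (limma adjusted p = 0.00744) and 0.74 ± 0.10 (adjusted p = 0.00243). The fall was lost without LPS library 3 (0.0516) and had a q-value of 0.0893 in the authors' deposited table.

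Markers of mesenchymal and mesothelial cells were followed beside Cdh11. Of all genes tested 14.2% were higher and 25.9% lower after LPS, and 18.0% and 11.8% at 2 weeks. Of 13 fibroblast and smooth muscle markers, 1 was higher and 6 lower after LPS, with summed FPKM of 1168 to 1600, and 6 were higher and 1 lower at 2 weeks, where the sum of 2944 to 3546 overlapped saline. Of the 5 tested mesothelial markers, 4 were lower after LPS (19.9 to 33.8), and 0 passed at 2 weeks (51.5 to 109). Their part in the Cdh11 values was not tested.

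Cdh4 (R-cadherin) fell after LPS from 2.07 to 2.26 FPKM to 0.450 to 0.703 FPKM (log2 -1.02 ± 0.14, limma adjusted p = 0.000793). At 2 weeks it was at 0.991 to 1.55 FPKM (log2 -0.43 ± 0.12, adjusted p = 0.0327), a call lost without any of the saline libraries or 2-week library 2 or 3 (0.0607 to 0.0796) and with equal FPKM totals (0.0647). Cdh22 fell after LPS from 1.13 to 1.34 FPKM to 0.221 to 0.412 FPKM (log2 -0.76 ± 0.13, limma adjusted p = 0.00213). The remaining classical cadherins, Cdh2 (N-cadherin), Cdh3 (P-cadherin), Cdh6 and Cdh24, stayed at or under 1.48 FPKM in every library and were not tested. In the authors' deposited table Cdh2 was lower after LPS (q-value 0.0268) and Cdh24 higher at 2 weeks (q-value 0.0248).

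Of the atypical cadherins, Cdh16, the kidney cadherin, gave the largest fall among all cadherins in both treatments. It was at 4.40, 7.07 and 4.31 FPKM in saline, 0.774, 0.401 and 0.356 FPKM after LPS and 0.791, 1.05 and 1.03 FPKM at 2 weeks. In the 4-week pair it was at 1.90 and 1.86 FPKM, and library 2 at 12.7 FPKM. LPS, 2-week and the 4-week pair all lay wholly below saline, by log2 fold changes of -2.03 ± 0.21 after LPS (limma adjusted p = 0.000216) and -1.65 ± 0.17 at 2 weeks (adjusted p = 0.000698). The difference of the 4-week pair did not pass (adjusted p = 0.0614). Of 10 type 2 cell markers, 8 were lower after LPS and 9 at 2 weeks, where 25.9% and 11.8% of all genes tested were lower. In the 4-week pair 7 were higher than at 2 weeks, where 1.95% of all genes tested were. Their summed FPKM in the pair, 12523 to 16534, overlapped the 15045 to 19414 of saline, while Cdh16 lay below saline. Library 2 held the highest type 2 sum (22419) and the highest Cdh16 value of all libraries. It also held the highest sum of 10 type 1 cell markers (2246). The part of these markers in the Cdh16 values was not tested. Cdh16 lies on chromosome 8 from 104614141 to 104624396.

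Cdh13 (T-cadherin), which is held to the membrane by a lipid anchor and binds adiponectin, was at 3.07, 4.34 and 6.14 FPKM in saline, 1.79, 1.44 and 1.25 FPKM after LPS and 3.40, 3.66 and 3.90 FPKM at 2 weeks. The 4-week pair was at 3.91 and 3.09 FPKM and library 2 at 19.8 FPKM. LPS lay wholly below saline (log2 -1.11 ± 0.22, limma adjusted p = 0.00552, q-value of 0.055 in the authors' deposited table), and the 2-week libraries lay within the saline range.

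Partners of cadherins fell with them after LPS. Of 16 tested genes in a list of 24 catenins, other cadherin partners and cadherin-like proteins, 0 were higher and 13 lower. Of all genes tested 14.2% were higher and 25.9% lower. The median log2 fold change was -0.85 against -0.22 over all genes. Ctnnal1, an α-catenin-like protein, fell by 1.18 (SE 0.17, limma adjusted p = 0.00102) and Arvcf, a catenin of the p120 family, by 1.16 (SE 0.17, adjusted p = 0.00135). At 2 weeks 1 was higher and 2 lower, where 18.0% and 11.8% of all genes tested were. Fat1, a giant cadherin-like protein, rose from 5.67 to 6.43 FPKM in saline to 11.3 to 11.9 FPKM (log2 0.85 ± 0.08, limma adjusted p = 0.000493), and Arvcf fell by 0.39 (SE 0.09, adjusted p = 0.02).

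The clustered protocadherins lie side by side on chromosome 18 and most were near 1 FPKM. After LPS all 17 β-cluster genes in the table had a lower mean than in saline (median difference of log2(FPKM + 1) -0.33), also with equal FPKM totals and median-ratio scaling. With quantile normalization 5 of the 6 tested were lower, with a median log2 fold change of -0.20 against -0.53 as deposited, and 1 passed instead of 3. At 2 weeks 18 of 19 had a higher mean (median 0.23, and 17 of 19 with median-ratio scaling). Of all genes tested, 7851 of 12456 had a negative log2 fold change after LPS and 7214 of 12725 a positive one at 2 weeks. Of the 6 β-cluster genes tested after LPS, 4 lay wholly below saline, and of the 9 tested at 2 weeks, 5 lay wholly above it. Of all genes tested 35.8% and 28.4% did so. Among all β-cluster genes in the tables, without the filter of 1 FPKM, 10 lay wholly below saline after LPS and 9 wholly above it at 2 weeks. The tables held only genes with a mean of 0.5 FPKM or more in either group. Pcdhb3, Pcdhb4, Pcdhb5, Pcdhb8, Pcdhb11, Pcdhb14, Pcdhb15, Pcdhb18 and Pcdhb19 had LPS means under 0.5 FPKM. Listed through saline, they had to have a lower mean after LPS. Pcdhb13 and Pcdhb21 were listed through the 2-week group and had to be higher. Shares over all genes on this basis were not computed. The genes share a locus and are not independent. Of 6 tested after LPS, 3 passed (Pcdhb9, Pcdhb17 and Pcdhb20), all lower, and of 9 tested at 2 weeks, 5 passed (Pcdhb5, Pcdhb7, Pcdhb9, Pcdhb16 and Pcdhb17), all higher. Of all genes tested 25.9% were lower after LPS and 18.0% higher at 2 weeks.

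**Figure D4:**
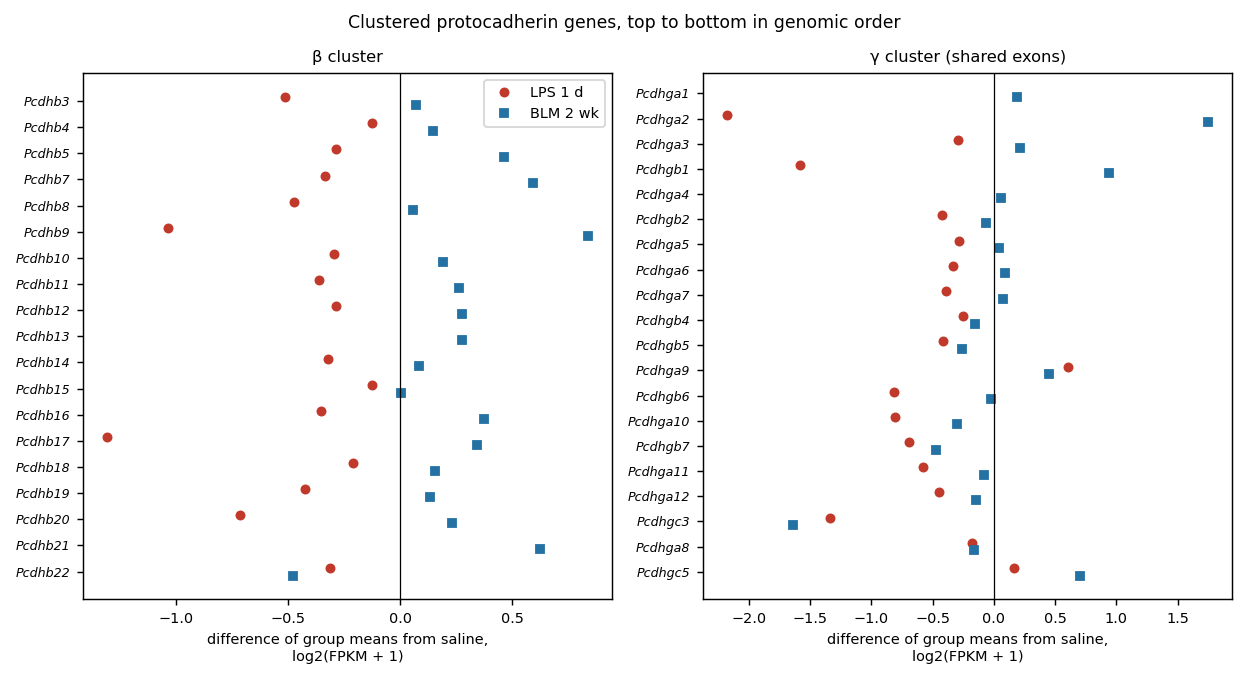
Difference of group means of log2(FPKM + 1) from saline for the genes of the β and γ protocadherin clusters, in genomic order, after LPS (circles) and at 2 weeks of bleomycin (squares); genes not in the LPS table have no circle. In the β cluster all 17 LPS points lie left of 0 and 18 of 19 squares right of it.

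Pcdhb9, the most abundant gene of the β cluster, was at 4.91, 5.33 and 5.75 FPKM in saline, 4.21, 1.43 and 1.33 FPKM after LPS and 9.42, 10.7 and 10.9 FPKM at 2 weeks. In the 4-week pair it was at 9.10 and 14.3 FPKM and library 2 at 6.19 FPKM. LPS lay below saline, and the 2-week and all 4-week libraries above it. The rise at 2 weeks was 0.84 ± 0.09 on the log2 scale (limma adjusted p = 0.000952). The fall after LPS (-1.03 ± 0.30, adjusted p = 0.0244) was lost without any of the saline libraries or LPS library 2 or 3 (0.0556 to 0.108) and had a q-value of 0.129 in the authors' deposited table.

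The other calls of the β cluster were smaller or less stable. Pcdhb7 rose at 2 weeks from 1.23 to 1.69 FPKM to 2.31 to 3.10 FPKM (log2 0.59 ± 0.12, limma adjusted p = 0.0109), and Pcdhb5 from 0.683 to 0.868 FPKM to 1.38 to 1.43 FPKM (log2 0.46 ± 0.09, adjusted p = 0.00754). Pcdhb16 and Pcdhb17 also passed at 2 weeks, but lost the call without 5 and 6 of the 6 libraries in turn (up to 0.122 and 0.158). Pcdhb17 was at 0 in LPS libraries 2 and 3 and at 2.82 FPKM in LPS library 1, within the saline range of 2.52 to 3.06 FPKM, and its call after LPS (0.0469) was lost without 5 of the 6 (up to 0.199). Pcdhb20 fell after LPS from 1.78 to 2.20 FPKM to 0.512 to 1.39 FPKM (log2 -0.71 ± 0.19, limma adjusted p = 0.0177), a call lost without saline library 1 (0.0643) or 3 (0.0754), LPS library 3 (0.0722) or with quantile normalization (0.0558).

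Values of the γ cluster are uncertain, since each of its 20 listed genes shares exons with others, over 27.8% to 66.8% of its exonic bases in the annotation. Pcdhga2 was at 13.1, 35.3 and 1.19 FPKM in the 3 saline libraries alone, and Pcdhgb1 at 0.690, 17.3 and 2.22 FPKM. After LPS 4 of 9 tested passed (Pcdhga10, Pcdhga12, Pcdhgb6 and Pcdhgb7), all lower, where 25.9% of all genes tested were lower. At 2 weeks Pcdhgc5 was higher and Pcdhgb7 lower of 12 tested, where 18.0% and 11.8% of all genes tested were. Each of these LPS calls was lost without at least 1 library (Pcdhga10 up to 0.0663, Pcdhga12 0.0566, Pcdhgb6 0.0731 and Pcdhgb7 0.0955), and that of Pcdhgb7 at 2 weeks without 5 of the 6 (up to 0.136). Pcdhac2, the single listed gene of the α cluster, was at 1.95 to 2.69 FPKM in saline, 0.459 to 0.886 FPKM after LPS (log2 -0.95 ± 0.16, limma adjusted p = 0.00257), 0.514 to 1.31 FPKM at 2 weeks (log2 -0.77 ± 0.17, adjusted p = 0.0151) and 0.387 and 0.334 FPKM in the 4-week pair (log2 -1.23 ± 0.14, adjusted p = 0.0181), with 7.94 FPKM in library 2. The 3 treated groups, without library 2, lay wholly below saline, and the 4-week call was lost without 4-week library 1 (0.109), a fit in which the lone unnumbered library is assumed to vary like saline.

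Of the protocadherins outside the clusters, 3 of 5 tested fell after LPS and 0 passed at 2 weeks by limma, with 1 at an unadjusted p under 0.05 there. Pcdh12, an endothelial protocadherin, fell from 3.43 to 4.53 FPKM to 0.822 to 1.47 FPKM (log2 -1.18 ± 0.18, limma adjusted p = 0.00146). Of 9 endothelial markers, 0 were higher and 3 lower, where 14.2% and 25.9% of all genes tested were. These markers had a median log2 fold change of -0.21, against -0.22 over all genes. Their summed FPKM of 400 to 477 overlapped the 411 to 610 of saline. Their part in the Pcdh12 values was not tested. Pcdh18 fell from 4.02 to 5.53 FPKM to 0.874 to 2.94 FPKM (log2 -0.98 ± 0.27, adjusted p = 0.0207), a call lost without saline library 1 (0.0736) or 2 (0.0579) or LPS library 3 (0.0621).

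Pcdh17 was at 4.60, 2.52 and 3.09 FPKM in saline, 1.99, 0.942 and 1.61 FPKM after LPS and 3.99, 3.47 and 3.40 FPKM at 2 weeks. The 4-week pair was at 2.84 and 2.73 FPKM and library 2 at 23.2 FPKM. LPS lay wholly below saline (log2 -0.80 ± 0.23, limma adjusted p = 0.024), a call lost without saline library 1 (0.093) or 3 (0.0631) or LPS library 2 (0.0606) or 3 (0.0719), and with median-ratio scaling (0.0514) or quantile normalization (0.0809). Pcdh7 was at 0.697 to 2.87 FPKM in saline and 3.62 to 3.96 FPKM at 2 weeks, wholly above saline without passing (adjusted p = 0.0571). Pcdh1, an airway epithelial protocadherin, was at 7.29 to 12.7 FPKM in saline, 6.39 to 7.65 FPKM after LPS and 6.29 to 9.44 FPKM at 2 weeks and did not pass. Pcdh19 was in the LPS table alone, at 0.297 to 0.958 FPKM, and was not tested. The 23 entries tested in no comparison reached at most 39.8 FPKM, in the γ-cluster gene Pcdhga9 of the unnumbered 4-week library.

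Compared with the 2-week libraries, Itgax, Itga5 and Itgb2 were lower and Itgav was higher in the 4-week pair. With all 3 libraries at 4 weeks 0 of 55 members and 0 of 12472 genes (0.0% in either direction) passed, with 6 members at an unadjusted p under 0.05 and the fit limited by library 2. Without it 2 of 54 members were higher (1.95% of all genes tested) and 8 lower (7.34%). Those lower were Itgax (log2 -1.56 ± 0.21, limma adjusted p = 0.00898), Itga5 (-1.41 ± 0.14, adjusted p = 0.00344), Itgb2 (-1.30 ± 0.21, adjusted p = 0.0133), Itgae, Pcdh7 (-0.96 ± 0.13, adjusted p = 0.00829), Itgb7, Itgb5 and Itgb4. Itgav (1.13 ± 0.18, limma adjusted p = 0.0133) and Cdh16 (0.56 ± 0.13, adjusted p = 0.035) were higher. Among the 54 members tested, the 4-week pair lay wholly above the 2-week libraries in 6 and wholly below in 15, where it did so in 11.1% and 38.4% of all genes tested.

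Scaling and single libraries bear on this comparison. The median of all genes was -0.16 as deposited, -0.36 with equal FPKM totals and 0.00 under either median-ratio scaling or quantile normalization, and the members called went from 2 higher and 8 lower to 1 and 14, 2 and 5, and 3 and 7 in turn. Leaving out a library of the pair leaves 1 in that group, which is then assumed to vary like the 2-week libraries. Without 1 of the 2-week libraries, Itga5 (up to 0.0208) and Itgav (up to 0.0415) kept their call. Without 4-week library 1, Itga5 was at 0.0292 and Itgav at 0.0467, while Itgax (0.0629), Itgb2 (0.0862) and Pcdh7 (0.0501) lost theirs, and Itgae (up to 0.101), Itgb7 (up to 0.106), Itgb5 (up to 0.135), Itgb4 (up to 0.156) and Cdh16 (up to 0.116) lost it without that library and also without 2 or 3 of the 2-week libraries in turn. A fit of 11 libraries ended the calls of Itgb7, Itgb4, Itgb5, Pcdh7 and Cdh16. Of 13 macrophage and monocyte markers, 0 were higher and 8 lower in the 4-week pair, where 1.95% and 7.34% of all genes tested were. Their summed FPKM went the other way, from 2973 to 4136 at 2 weeks to 4247 to 4512 in the pair. Of 10 type 2 cell markers, 7 were higher and 0 lower. The part of these markers in the integrin values was not tested. Against saline the pair showed the call of Itgav and that of Pcdhac2 and no other among 52 members tested. Pcdhac2 was under 1 FPKM in each library of the pair and passed the filter through the saline libraries alone.

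LPS compared directly with 2 weeks of bleomycin gave 4 higher and 26 lower of 48 tested members, where 10.4% and 23.8% of all genes tested were. Both Itgam entries (log2 1.55 ± 0.28 and 2.97 ± 0.58, limma adjusted p = 0.00283 and 0.00457), Itga7 and Itgb2 were higher after LPS. The call of Itgb2 (0.0495) was lost without any 1 library (0.056 to 0.278) and with equal FPKM totals (0.416) or quantile normalization (0.355), and that of Itga7 (0.0286) without 5 of the 6 (up to 0.0894). Cdh11 was lower after LPS by -2.53 ± 0.38 (limma adjusted p = 0.0011), Pcdhb9 by -1.87 ± 0.30 (adjusted p = 0.00146), Itgbl1 by -1.65 ± 0.24 (adjusted p = 0.000939), Itgae by -1.40 ± 0.18 (adjusted p = 0.000517) and Itgb4 by -1.04 ± 0.21 (adjusted p = 0.00519). All 7 tested β-cluster protocadherins and all 3 tested cadherins were lower after LPS, of which 5 of 7 passed with median-ratio scaling and 4 of 7 and 2 of 3 with quantile normalization. Pcdhb5, Cdh22 and the γ-cluster genes Pcdhga10 and Pcdhgc5 were under 1 FPKM in every LPS library and passed the filter through the 2-week libraries. The median of all genes was -0.25 as deposited and -0.53, 0.02 and -0.02 with equal FPKM totals, median-ratio scaling and quantile normalization, and the all-gene calls of 1303 higher and 2970 lower became 755 and 5523, 2133 and 1625, and 1666 and 1864. The members' calls became 2 and 32, 7 and 17, and 5 and 15.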

How the data were processed

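RNA of mouse alveolar epithelial cells was measured in 12 libraries of 4 groups, taken from sample titles. HISAT2, StringTie and build mm10 are named in the submitters' processing notes, without versions or roles; the sources used here give no annotation release, strand setting or read total, so depth is unknown. Per the file headers, the authors deposited FPKM per library in 3 tables, each with 1 treatment and saline; saline values were identical between tables (largest difference 0). The deposited group means are log2(FPKM + 1) by their values (within 4.62e-14); the log2 fold change, its linear ratio (fold) and the p-value and q-value are the authors' deposited ones. The tables held genes with a group mean of 0.5 FPKM or more in either group, and 1 line of each had been emptied. The 4-week column whose number matched no title was used without a number.

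All two-sided moderated tests (limma 3.58.1, R 4.3.3, with a trend of the variance on the mean) were run on log2(FPKM + 1), for the libraries of the groups compared, genes reaching 1 FPKM in 3 or more libraries, and Benjamini-Hochberg adjustment over all genes tested; changes of low genes are understated on this scale. The scripts were tested on simulated data. Gene models came from GENCODE M21, in which 67 of 81 members had the same identifier, start and end. Members, gene lists and tests were chosen with earlier results of these data known. Members that reached a mean of 5 FPKM in a group and passed against saline are given for every library, others as ranges, and of each list the 2 largest changes past the threshold. Alternatives were the pseudocount (0.1), the filter, scaling, a replicate block, joint fits, the authors' q-value and leaving out each library.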

Additional observations from a re-analysis of the deposited data

Results flagged for a closer look

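The change from 2 to 4 weeks of bleomycin was singled out because a direct test of 4 weeks against 2 weeks, without 4-week library 2, passed for 10 members (limma adjusted p under 0.05), so that their differences from the same saline libraries were unequal at the 2 times. The log2 difference was -1.56 for Itgax, -1.41 for Itga5, -1.3 for Itgb2, -1.05 for Itgae, -0.96 for Pcdh7, -0.92 for Itgb7, -0.61 for Itgb5 and -0.55 for Itgb4, and 0.56 for Cdh16 and 1.13 for Itgav. With library 2 in the fit 0 of these passed. These 10 were selected by this test. Of all 54 members tested, the 4-week pair lay wholly above the 2-week libraries in 6 and wholly below in 15, against 11.1% and 38.4% of all genes tested.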

How the results depend on the processing

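Depth is unknown, so no counting error can be given, and 3 libraries per group limit every test. No called member changed direction: of 1223 alternative values of called members, 918 stayed past the threshold, 305 did not and 0 changed sign. Of 3739 alternative values of members with no call, 318 changed sign and 95 passed; the cause was not tested. In what follows, counts are members higher, members lower and all genes called. With at least 5 FPKM, which tests fewer genes, 3 members were lower after LPS (3272 genes), 7 higher and 0 lower at 2 weeks, 0 and 0 at 4 weeks without library 2 (101 genes), 0 and 5 in the 4-week pair against 2 weeks, and 7 were lower in LPS against 2 weeks (2729 genes). With 1 fit of 12 libraries they were 2, 1 and 669 after LPS, 0, 0 and 134 at 2 weeks, 1 gene at 4 weeks, 1 member lower and 67 genes at 4 weeks against 2 weeks, and 1, 3 and 484 in LPS against 2 weeks. With 1 fit of 11 libraries they were 7 higher and 1773 genes at 2 weeks, 1, 2 and 195 at 4 weeks, and 1, 4 and 639 at 4 weeks against 2 weeks. The authors' q-value gave 4, 11 and 2857 after LPS, 1 lower at 2 weeks and 1 gene at 4 weeks. Equal FPKM totals gave 2 lower at 2 weeks, 1, 14 and 2825 in the 4-week pair against 2 weeks, and 2 higher in LPS against 2 weeks. Median-ratio scaling gave 3 higher in the 4-week pair against saline, 5 lower against 2 weeks, and 7 and 17 in LPS against 2 weeks. Quantile normalization gave 3 higher in the 4-week pair against saline and 15 lower in LPS against 2 weeks.

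Leaving out each library in turn gave 5 to 6, 6 to 28 and 2561 to 6693 after LPS (28 lower without LPS library 1), 9 to 17, 2 to 4 and 2153 to 3282 at 2 weeks, and 0 to 1, 0 to 1 and 0 to 177 at 4 weeks. It gave 1 to 1, 0 to 3 and 33 to 900 in the 4-week pair against saline, 0 to 2, 0 to 8 and 0 to 1155 at 4 weeks against 2 weeks, 1 to 2, 1 to 14 and 174 to 2511 for the pair against 2 weeks, and 2 to 3, 13 to 30 and 1919 to 6473 in LPS against 2 weeks. A replicate block gave 7, 22 and 4885 after LPS, 14, 3 and 3310 at 2 weeks, 0 and 0 at 4 weeks, 2 genes at 4 weeks against 2 weeks, and 4, 25 and 3642 in LPS against 2 weeks. Libraries share only a number: deviations of same-numbered libraries from their group means correlated at -0.0772, 0.0288 and -0.0866 between LPS and saline, and at 0.115, -0.0891 and 0.0235 between 2 weeks and saline, and not every library correlated best with its own number. The fit of summed Itgam entries was added after seeing the data.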
